A study of Mus musculus with 4 samples.

Results

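The 10 genes described here are the Fos family (Fos, Fosb, Fosl1, Fosl2), the Jun family (Jun, Junb, Jund), and the early response factors Atf3, Egr1 and Nr4a1, in mouse aortas whose smooth muscle either kept or had lost Smad4. They were chosen by symbol as all probe sets mapped to exactly 1 of these names, which gave 14 probe sets for 10 genes, of 34945 probe sets for 18193 genes in all. Aortas came from 6-week-old mice with a deletion of Smad4 restricted to smooth muscle cells (Smad4-KO) and from their wild-type littermates (WT), and no treatment is given for either group. Smad4 joins the Smads that TGF-beta and BMP receptors phosphorylate and carries their signal to DNA. The labels do not name the promoter that drives the deletion. For every Affymetrix array, 3 to 5 vessels were pooled and 400 ng of their RNA was used. There were 2 such pools per genotype, numbered replicate 1 and replicate 2 by the labels.

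Fos and Jun proteins pair through a leucine zipper to form AP-1, which binds DNA and switches on genes of growth, matrix turnover and inflammation. Jun proteins can also pair with each other, while Fos proteins need a Jun partner. The genes are known as immediate early because a growth factor, mechanical load, an injury or the handling of a tissue raises their RNA within minutes, with no new protein needed, and the RNA is then quickly destroyed. Atf3 is a stress-induced relative with the same kind of zipper, Egr1 is a zinc finger factor induced through the same kinases, and Nr4a1 is an orphan nuclear receptor. In smooth muscle, Egr1 and AP-1 are known from injured vessels, and Jun and Fos proteins also bind Smad proteins at shared target genes.

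In Smad4-KO aortas Fosb fell 3.51-fold, and it was the single gene of the 10 that passed the test. Egr1, Nr4a1, Atf3 and Jun read lower on both Smad4-KO arrays than on both WT arrays without passing it. Junb read higher on both, also without passing, Fos itself read nearly the same in both genotypes, and the probe sets of Fosl1 disagreed in direction. All 10 genes had a probe set bright enough to be tested. Of these, 1 passed an adjusted p of 0.05 in limma, a share to be read against 6.31% of all 13645 genes tested, or 1.39% for genes called lower. The genotypes did not overlap for 5 genes that read lower and 2 that read higher (Junb, and Fosl1 by its brighter probe set alone), where 21.4% of all genes were lower and 25.9% higher in that way. The median log2 difference of the 10 genes was -0.77, from -1.81 to 1.29, and that of all genes tested was -0.01. The median of the 10 shrank to -0.41 without WT replicate 2 and to -0.39 without Smad4-KO replicate 1, and over the 4 pairings of a Smad4-KO with a WT array it ran from -1.11 to -0.14. A gene counts here by its brightest probe set, values after ± are standard errors from the limma fit, and adjusted p-values are over all genes tested. In bulk tissue, fewer cells of a type and less RNA per cell cannot be told apart.

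**Figure D1:**
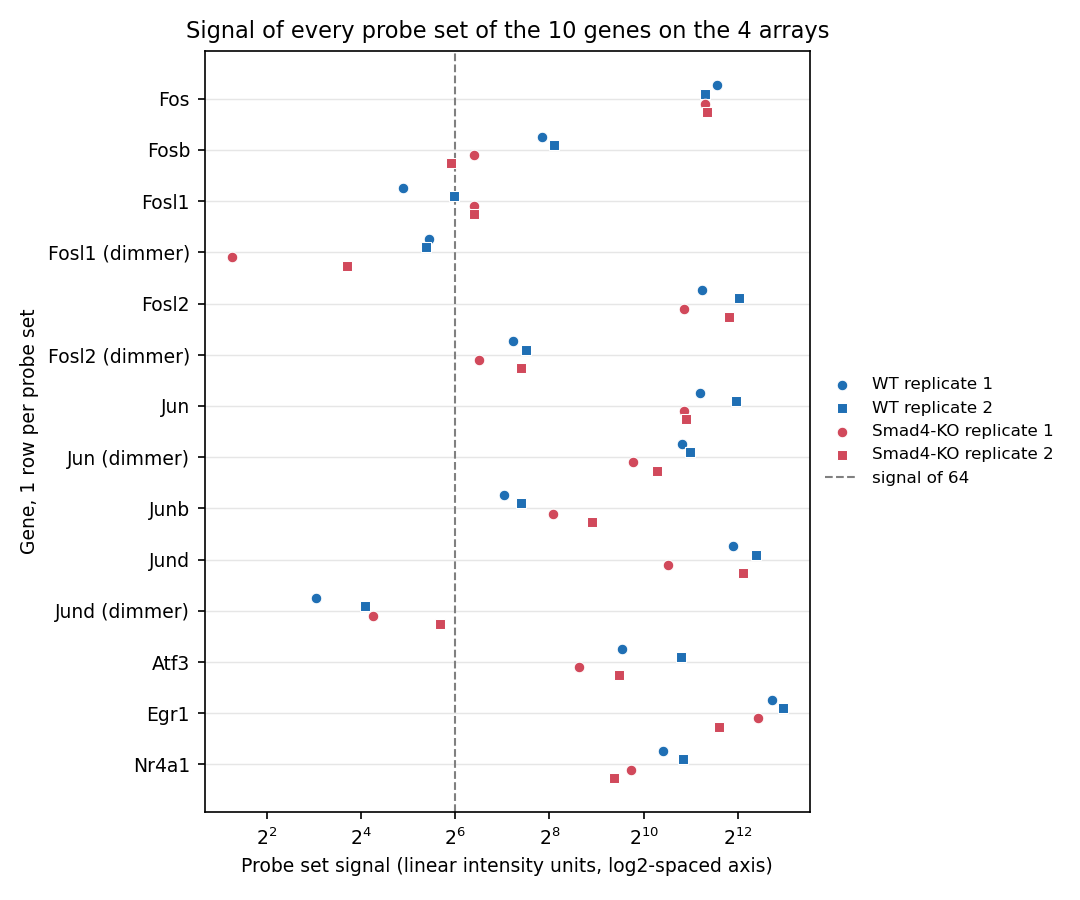
Signal of each of the 14 probe sets on each array, on a log2-spaced axis in linear intensity units, with WT in blue, Smad4-KO in red, circles for replicate 1 and squares for replicate 2. The Fosb points of Smad4-KO (84.9 and 60.4) lie well to the left of those of WT (230 and 274), while the Fos points nearly coincide.

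The arrays differed in more than genotype. The targeted gene, Smad4, read 4394 and 3819 in the WT pools and 2676 and 3580 in the Smad4-KO pools, and its difference of -0.40 ± 0.32 on the log2 scale missed the threshold (adjusted p = 0.626). Which part of the gene was removed is not given in the sources used here. Summed smooth muscle markers read 138314 and 164839 in the WT pools and 60743 and 69724 in the Smad4-KO pools, and 5 of 10 fell. Summed macrophage markers read 17381 and 11074 against 65684 and 84934, with 8 of 12 higher past the test, and nerve cell markers 1916 and 1703 against 37357 and 28744, with 9 of 9. On both WT arrays 1 macrophage marker and 0 nerve cell markers read below 64, and on both Smad4-KO arrays 0 of either list. Summed neutrophil markers read 1699 and 525 against 14858 and 19046, with 5 of 6 tested higher past the test. Summed skeletal muscle markers read 929.7 and 524 in the WT pools and 1059 and 12730 in the Smad4-KO pools, so that Smad4-KO replicate 2 stood apart, and 0 of 7 tested passed in limma (2 at an unadjusted p under 0.05). These markers stand beside every genotype difference below, and their part in it was not tested. The 3' to 5' ratio of the Dap labelling control was high on WT replicate 1 (10.02) and Smad4-KO replicate 2 (14.1). It was low on WT replicate 2 (2.96) and Smad4-KO replicate 1 (3.62). The ratios of the mouse genes actin and Gapdh split the arrays in the same way. Actin was at 11.4 and 12.8 on the first pair against 4.19 and 2.83, and Gapdh at 3.27 and 3.00 against 1.44 and 1.04.

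The promoters of 4 of the genes are printed because they represent the patterns found: Fosb fell, Nr4a1 read lower and Junb higher without overlap, and Fos read alike in both genotypes. Each is the 250 bases before the annotated start, 5′ to 3′ on the gene's strand, from RefSeq on GRCm38.p6. The windows are chr12:85473640-85473889 on the plus strand for Fos, chr7:19310046-19310295 on the minus strand for Fosb, chr8:84978749-84978998 on the minus strand for Junb and chr15:101266596-101266845 on the plus strand for Nr4a1. Capitals mark TGACG on either strand (CGTCA where it lies on the other), the core shared by the binding sites of the CREB and ATF proteins.
Fos: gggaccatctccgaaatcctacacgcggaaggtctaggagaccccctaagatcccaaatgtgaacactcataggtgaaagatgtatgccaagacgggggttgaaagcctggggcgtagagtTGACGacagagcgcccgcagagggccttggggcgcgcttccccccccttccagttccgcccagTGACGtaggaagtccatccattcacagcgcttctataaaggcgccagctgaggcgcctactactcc
Fosb: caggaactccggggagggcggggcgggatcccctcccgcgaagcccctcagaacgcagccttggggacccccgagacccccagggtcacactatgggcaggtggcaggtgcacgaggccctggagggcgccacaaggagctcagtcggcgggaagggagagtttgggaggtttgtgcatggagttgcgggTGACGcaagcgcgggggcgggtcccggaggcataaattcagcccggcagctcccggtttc
Junb: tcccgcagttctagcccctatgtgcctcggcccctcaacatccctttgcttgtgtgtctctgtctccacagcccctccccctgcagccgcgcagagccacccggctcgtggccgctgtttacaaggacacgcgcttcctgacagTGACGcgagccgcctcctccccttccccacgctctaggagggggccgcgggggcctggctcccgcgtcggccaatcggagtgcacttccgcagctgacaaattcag
Nr4a1: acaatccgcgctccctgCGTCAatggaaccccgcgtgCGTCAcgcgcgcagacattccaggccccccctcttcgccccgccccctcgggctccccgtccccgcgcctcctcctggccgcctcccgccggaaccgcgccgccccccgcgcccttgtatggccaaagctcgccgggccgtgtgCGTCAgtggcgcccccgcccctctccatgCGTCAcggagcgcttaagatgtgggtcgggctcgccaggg
A window was found for 8 of the 10 genes, all but Fosl1 and Egr1. TGACG was in 5 of those 8, Fos, Fosb, Junb, Atf3 and Nr4a1, and in 17.8% of 32851 promoter windows of the same length. Nr4a1 held 4 copies, at 233 to 229, 213 to 209, 69 to 65 and 40 to 36 bases before the start. Fos held 2, at 129 to 125 and at 66 to 62 bases, Fosb 1 at 60 to 56 and Junb 1 at 106 to 102. The core thus lies in promoters of genes that read lower, alike and higher. The full cAMP response element TGACGTCA, which contains TGACG, was in 0 of the 8 and in 1.55% of all windows. The AP-1 site TGANTCA (0 of 8, against 6.75%), the CArG box bound by serum response factor (0 of 8, against 1.47%) and the Smad element GTCTAGAC (0 of 8, against 0.167%) had no match in these 250 bases. The Egr site GCGNGGGCG was in 3 of 8, Fosb, Fosl2 and Nr4a1, and in 4.70% of all windows, and overlapped none of the TGACG copies. All motifs were searched on both strands, and a match is a stretch of letters, not a bound site.

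Among the Fos proteins, Fos is the founding member and carries a strong activation domain. It read 3004 and 2537 in the WT pools and 2541 and 2601 in the Smad4-KO pools, so the genotypes overlapped. Its log2 difference was -0.10 ± 0.30 (95% interval -0.85 to 0.64, adjusted p = 0.918), an interval that leaves room for modest changes either way.

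Fosb, a close relative of Fos with a stable splice form known to build up under repeated stimulation, read 230 and 274 in the WT pools and 84.9 and 60.4 in the Smad4-KO pools. Both WT pools lay above both Smad4-KO pools. The log2 difference was -1.81 ± 0.33 (95% interval -2.65 to -0.98, adjusted p = 0.0406). Among genes of similar signal, replicates differed with an SD of 0.84 in WT and 1.15 in Smad4-KO on the log2 scale. Smad4-KO replicate 2 lay under 64, and with signals under 64 raised to 64 the log2 difference of Fosb was -1.77. Each pair of arrays gave the same direction, with -1.44 between the arrays numbered 1, -2.18 between those numbered 2, and -1.69 and -1.93 across numbers. Fosb has a single probe set. Its log2 difference was also -1.81 with every probe set tested by itself and with probe sets averaged. The call lay close to the threshold. It ended when WT replicate 1 (adjusted p = 0.137), WT replicate 2 (0.221) or Smad4-KO replicate 2 (0.0937, with a log2 difference of -1.57) was left out. It also ended with a block for the arrays paired on the labelling controls (adjusted p = 0.0727), with no filter on low signal (0.128), with every probe set tested by itself (0.109) and with all probe sets of a gene averaged (0.0615), in a range of 0.0271 to 0.221 over 14 alternatives.

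Fosl1 (Fra-1), which lacks the activation domain of Fos, had a pair of dim probe sets that disagreed. The brighter read 29.8 and 63.0 in the WT pools and 84.9 and 83.8 in the Smad4-KO pools, a log2 difference of 0.96 ± 0.44 (adjusted p = 0.323). The dimmer read 43.5 and 41.5 in the WT pools and 2.40 and 13.1 in the Smad4-KO pools, too low to be tested with the others. On both probe sets the genotypes did not overlap, but in opposite directions, and among the genes of its signal class (10 classes of equal size, this one the dimmest) replicates differed with an SD of 1.05 in WT and 1.31 in Smad4-KO on the log2 scale. No direction is given for Fosl1.

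Fosl2 (Fra-2), the other member of that kind, varied more with the replicate number than with the genotype. It read 2421 and 4174 in the WT pools and 1858 and 3610 in the Smad4-KO pools, and the log2 difference was -0.30 ± 0.47 (adjusted p = 0.844). Its dimmer probe set read 149 and 181 in the WT pools and 91.0 and 169 in the Smad4-KO pools, and overlapped as well.

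Of the Jun proteins, Jun is the strongest activator. Its brighter probe set read 2364 and 3964 in the WT pools and 1849 and 1900 in the Smad4-KO pools, and its dimmer one 1813 and 2042 in the WT pools and 882 and 1253 in the Smad4-KO pools. On both, each Smad4-KO array lay below each WT array. The log2 differences were -0.71 ± 0.37 (adjusted p = 0.399) and, in a fit of every probe set, -0.87 (adjusted p = 0.393), and neither passed. The first was -0.34 without WT replicate 2 and -1.08 without WT replicate 1.

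Junb, which restrains Jun in many settings and is also induced by cytokines, read the other way from most of the 10. Its values were 131 and 167 in the WT pools and 272 and 479 in the Smad4-KO pools. Both Smad4-KO arrays were higher, and the 2.44-fold difference (log2 1.29 ± 0.39, 95% interval 0.30 to 2.28) did not pass (adjusted p = 0.148, from 0.0839 to 0.469 over 14 alternatives).

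Jund, the Jun protein made at a steady level in resting cells, differed more between the Smad4-KO pools than between genotypes. Its bright probe set read 3807 and 5368 in the WT pools and 1471 and 4425 in the Smad4-KO pools, so that Smad4-KO replicate 1 alone stood low. The log2 difference of -0.83 ± 0.58 did not pass (adjusted p = 0.566), and it was -1.62 without Smad4-KO replicate 2 and -0.03 without Smad4-KO replicate 1. A second probe set, at 8.19 and 17.0 in the WT pools and 19.0 and 51.3 in the Smad4-KO pools, was too dim to be tested and pointed the other way.

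Atf3 read 745 and 1789 in the WT pools and 394 and 713 in the Smad4-KO pools. The highest Smad4-KO array lay just below the lowest WT array. The log2 difference was -1.12 ± 0.54 (adjusted p = 0.361), and it shrank to -0.49 without WT replicate 2 and grew to -1.75 without WT replicate 1.

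Egr1 read 6789 and 7924 in the WT pools and 5495 and 3124 in the Smad4-KO pools. Smad4-KO replicate 2 was the lowest array, as it was for Fosb and Nr4a1. That array was high in skeletal muscle markers and also had the highest Dap ratio, and the part of these was not tested. The log2 difference of Egr1, -0.82 ± 0.39, did not pass (adjusted p = 0.342). It was -0.42 without Smad4-KO replicate 2 and -1.23 without Smad4-KO replicate 1.

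Nr4a1 read 1370 and 1841 in the WT pools and 849 and 659 in the Smad4-KO pools. Both Smad4-KO arrays were lower, by 2.12-fold in the geometric mean (log2 difference -1.09 ± 0.33, 95% interval -1.92 to -0.25). It missed the threshold (adjusted p = 0.149, from 0.103 to 0.553 over 15 alternatives). Unadjusted p-values were under 0.05 for 3 of the 10 genes, Fosb (0.00215), Junb (0.0197) and Nr4a1 (0.0200), where 19.3% of all genes tested reached that level.

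**Figure D2:**
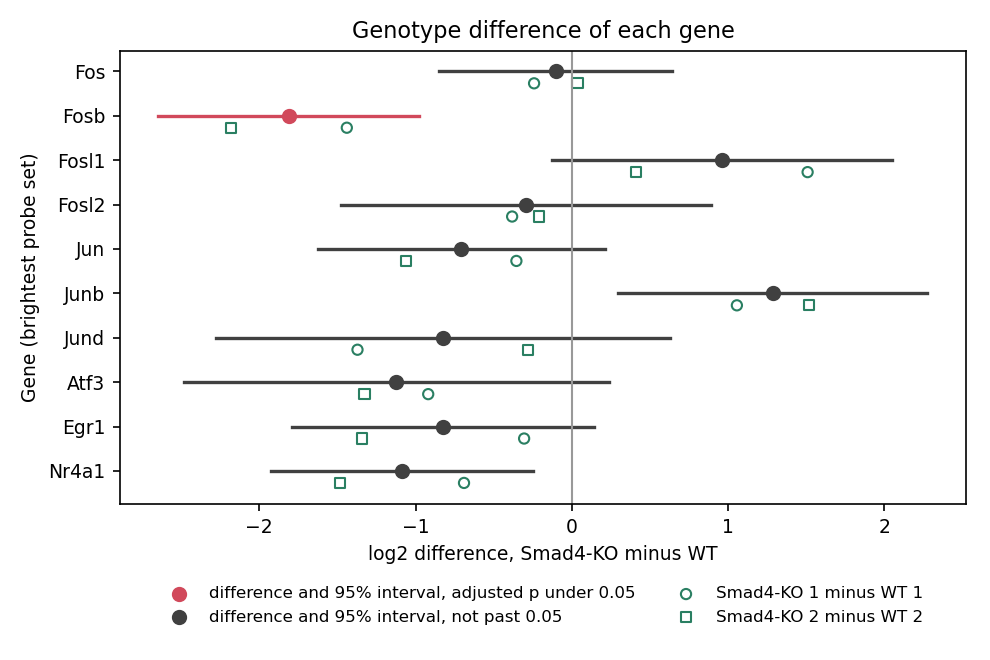
Log2 difference of each gene, Smad4-KO minus WT, with its 95% interval from limma (red, adjusted p under 0.05; dark grey, not past it) and, in green, the difference between arrays of the same replicate number. The interval of Fosb (-2.65 to -0.98) lies below 0 and those of Junb and Nr4a1 also leave 0 out, but Fosb alone passed after adjustment over all genes.

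Many of the 10 genes also differed between pools of 1 genotype. WT replicate 2 read above WT replicate 1 for 9 of the 10 genes, with Fos the exception, against 47.9% of all genes tested. Smad4-KO replicate 2 read above replicate 1 for 6 of the 10, against 46.5%. Both held for 5 of the 10 (Fosl2, Jun, Junb, Jund and Atf3), against 19.5% of all genes. In the lists described below, both held for 21 of 43 other early response genes and 8 of 15 other zipper genes. They also held for 12 of 25 AP-1 targets, 10 of 18 heat shock genes and 8 of 26 upstream kinases and factors. The pattern was thus not particular to the 10. The count for the 10 was chosen after the values were seen, and in Jun the Smad4-KO arrays differed by 0.04 on the log2 scale alone. The largest gaps were 1.59 for Jund in Smad4-KO, where genes of its signal class had an SD of 0.65, and 1.26 for Atf3 in WT, where that SD was 0.56.

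Other measures moved with the replicate number in both genotypes. Xist, a non-coding RNA of female cells, gave 15193 (WT) and 6223 (Smad4-KO) for replicate 1 against 90.0 and 135 for replicate 2. Summed fat cell markers read 77292 and 63895 for replicate 1 of the 2 genotypes and 31778 and 30968 for replicate 2. The heat shock gene Hspa1a, induced by stress and tissue handling, read 1293 and 7591 in the WT pools and 394 and 1551 in the Smad4-KO pools, and its near copy Hspa1b 5220 and 22293 in the WT pools and 1808 and 9804 in the Smad4-KO pools. The order of the 4 arrays for Hspa1a, with WT replicate 2 highest and Smad4-KO replicate 1 lowest, was that of Fosl2 and Jund. Atf3 and Jun shared it apart from the middle pair, and the rest of the 10 had other orders. Hspa1a and Hspa1b were picked after their values were seen, their probe sets may share RNA, and neither passed between genotypes (adjusted p = 0.389 and adjusted p = 0.596). The part of these measures in the values of the 10 genes was not tested.

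**Figure D3:**
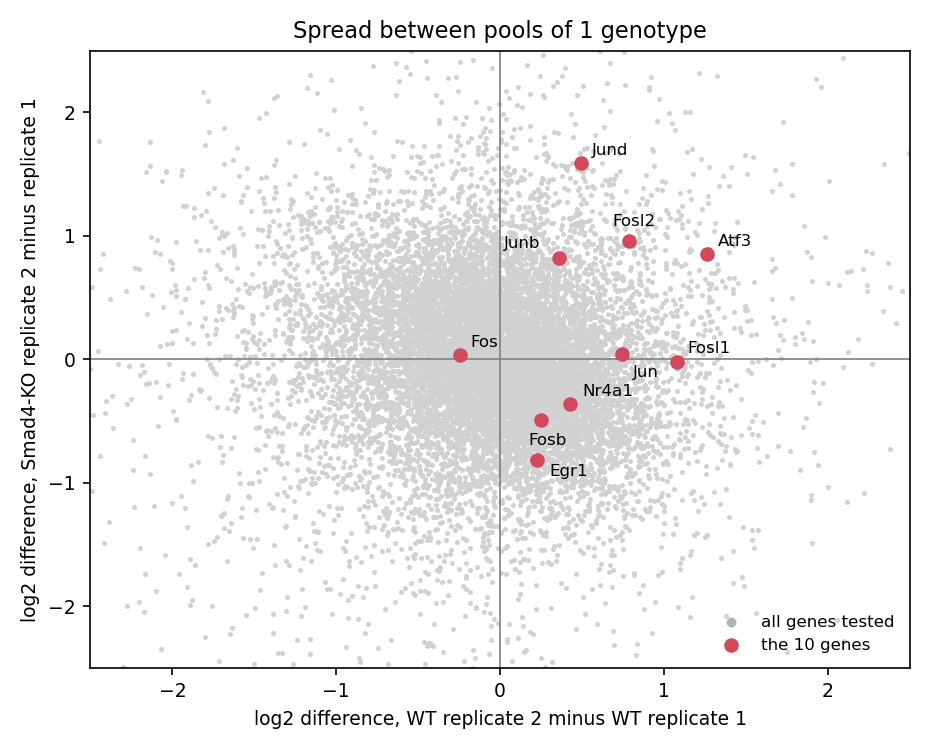
Log2 difference between the pools of 1 genotype, replicate 2 minus replicate 1, in WT (horizontal) and Smad4-KO (vertical), with the 10 genes in red over all genes tested in grey (319 genes lie beyond the axes at 2.5). Jund, Fosl2, Atf3 and Junb lie in the upper right, above 0 in both genotypes, and Fosb, Nr4a1 and Egr1 lie in the lower right.

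The rest of the zipper family was measured by 15 other genes, of which 1 rose and 0 fell (median log2 difference 0.11), beside 4.92% of all genes called higher. The one that rose was Batf, an AP-1 partner of white blood cells, which read 28.5 and 58.9 in the WT pools and 212 and 275 in the Smad4-KO pools. Its log2 difference was 2.56 ± 0.44 (adjusted p = 0.0353). With signals under 64 raised to 64 it was at least 3.77-fold higher. Macrophage and neutrophil markers were higher on the same arrays, as given above.

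Of 43 other early response genes, 4 rose and 0 fell, beside 4.92% of all genes called higher and 1.39% lower, and 20 differences were negative (median 0.03). Myc, a growth-promoting factor, read 108 and 105 in the WT pools and 487 and 570 in the Smad4-KO pools and rose 4.95-fold (2.31 ± 0.30, adjusted p = 0.0191). Plk2, an early response kinase, read 358 and 282 against 1773 and 1394 (2.31 ± 0.32, adjusted p = 0.0218). The remaining pair are phosphatases that switch off ERK, the kinase that drives Fos and Egr1 transcription. Dusp6 read 1300 and 847 in the WT pools and 3909 and 3650 in the Smad4-KO pools (1.85 ± 0.34, adjusted p = 0.0421). Dusp5 read 21.2 and 33.8 in the WT pools and 182 and 337 in the Smad4-KO pools (3.21 ± 0.44, adjusted p = 0.0211). Both WT signals of Dusp5 lie under 64. With signals under 64 raised to 64 it was at least 3.87-fold higher, and the call ended (adjusted p = 0.0618).

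Among 26 kinases, ternary complex factors and their regulators upstream of these genes, 2 rose and 0 fell (median 0.08), a share near the 4.92% of all genes called higher. Mapk11, a p38 kinase, read 92.3 and 74.2 in the WT pools and 368 and 287 in the Smad4-KO pools (1.97 ± 0.32, adjusted p = 0.0308). Mapk10 is the JNK kinase most abundant in nerve cells. It read 24.5 and 26.6 in the WT pools and 1849 and 2150 in the Smad4-KO pools. Its log2 difference was 6.29 ± 0.30 (adjusted p = 0.00934). With signals under 64 raised to 64 it was at least 31.1-fold higher. That bound holds for its brightest probe set, and with all its probe sets averaged the log2 difference was 3.45 (adjusted p = 0.0307). All 9 tested nerve cell markers rose in the same arrays (median 4.92).

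Genes known as AP-1 targets read higher for the most part. Of 25 tested, 6 rose and 0 fell, beside 4.92% of all genes called higher, and 21 differences were positive (median 0.88, against -0.01 over all genes). Fosl1 is itself on this list. Il6, an inflammatory cytokine, read 15.8 and 49.9 in the WT pools and 634 and 1635 in the Smad4-KO pools. Its log2 difference was 5.18 ± 0.71 (adjusted p = 0.0207). With signals under 64 raised to 64 it was at least 15.9-fold higher. Hmox1, which breaks down heme, read 121 and 149 in the WT pools and 3695 and 1512 in the Smad4-KO pools (4.14 ± 0.49, adjusted p = 0.0170). Timp1, an inhibitor of matrix proteases, read 1065 and 861 in the WT pools and 4596 and 16109 in the Smad4-KO pools (3.17 ± 0.63, adjusted p = 0.0486). Mmp13, a collagenase, read 17.7 and 12.9 in the WT pools and 185 and 476 in the Smad4-KO pools (4.30 ± 0.52, adjusted p = 0.0175). With signals under 64 raised to 64, Mmp13 was at least 4.64-fold higher and its call ended (adjusted p = 0.0908). No signal of Timp1 lies under 64, and its log2 difference stayed at 3.17 in that fit with an adjusted p of 0.0707. Several of these genes are also expressed by macrophages, whose markers had a median difference of 2.53 on the same arrays.

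Heat shock and tissue handling genes did not pass in either direction: limma called 0 of 18, beside 6.31% of all genes, and 2 had an unadjusted p under 0.05, beside 19.3% of all genes. Their median was -0.38. The pair under 0.05 were Dnajb4, a co-chaperone, which read 9744 and 23010 in the WT pools and 5920 and 5014 in the Smad4-KO pools (-1.46 ± 0.48, adjusted p = 0.173), and Hspb1, a small heat shock protein abundant in muscle, at 10438 and 11177 against 4684 and 7205 (-0.89 ± 0.35, adjusted p = 0.242). Replicate 2 read above replicate 1 in both genotypes for 10 of the 18, against 19.5% of all genes.

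The calls of the 11 genes named from these lists all ended without WT replicate 2, with no filter on low signal and with the labelling pairs as a block, and all but that of Mapk10 ended without WT replicate 1 and with every probe set tested by itself. With probe sets averaged, Plk2 was at 1.47 (adjusted p = 0.176), and the calls of Mapk11 (0.115), Timp1 (0.0639) and Dusp6 (0.0626) ended too. The log2 differences of Timp1 (3.17) and Dusp6 (1.85) were unchanged in that fit. Mapk11 also lost its call with quantile normalization (0.0519), median centring (0.0524) and without Smad4-KO replicate 1 (0.0711), and Dusp6 with median centring (0.0787) and without Smad4-KO replicate 1 (0.0925) or 2 (0.0787). Batf lost its call without Smad4-KO replicate 1 (0.0545) or 2 (0.0744). For Myc the adjusted p was 0.110 without WT replicate 2 and 0.0825 without WT replicate 1.

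**Figure D4:**
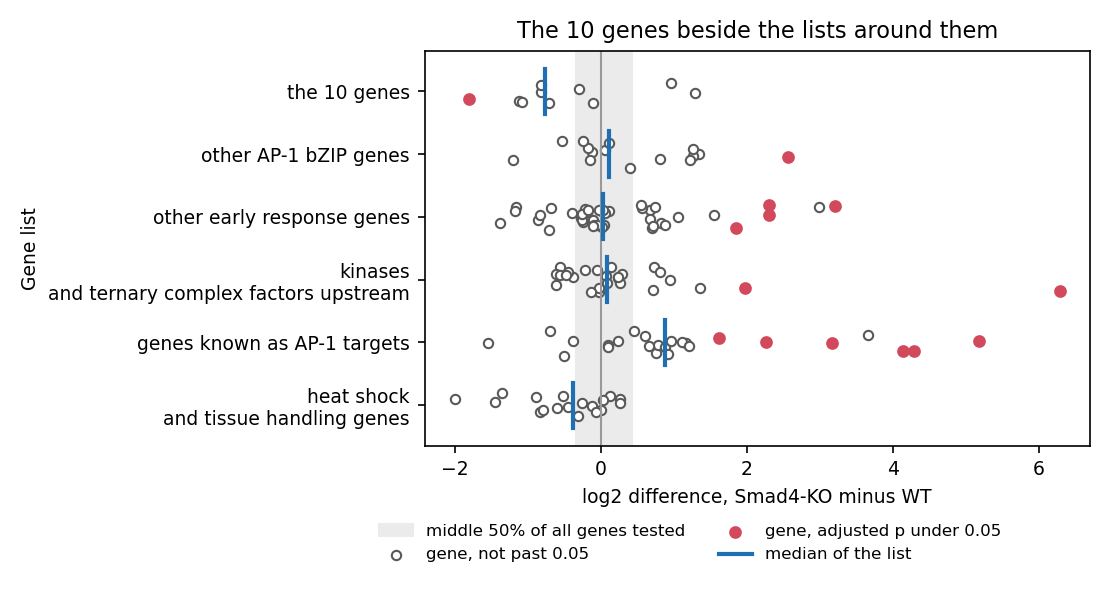
Log2 difference, Smad4-KO minus WT, of every tested gene of the 10 and of the 5 lists around them (open, not past an adjusted p of 0.05; red, past it), with each list's median as a blue line and the middle 50% of all genes tested in grey. The median of the 10 genes (-0.77) lies left of the grey band and that of the AP-1 targets (0.88) right of it; without WT replicate 2 the former is -0.41.

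The genes whose values over the 4 arrays were most like those of Fos, by the distance between log2 values centred on each gene's mean, were Klhl22, Unc50, Gnb2, Sparcl1 and Ccn5, at distances of 0.026 to 0.036. Those most like Egr1 were Ccdc163, Pga5, Firre, Lpin3 and Ear3, at 0.058 to 0.084. With 4 arrays such likeness is a description alone.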

How the data were processed

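RNA of 4 pools of mouse aortas, 2 per genotype, was measured on Affymetrix arrays. The authors deposited 1 linear intensity per probe set and array. Affymetrix Expression Console and RMA are named, with no version, per the submitters' processing notes. The values are not on a log scale and their mean after trimming 2% at each end is 500 on every array, which is the form of MAS5. The genome build is not given in the sources used here. Medians per array were 111 to 137, and the number of arrays limits the precision.

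Values were taken to log2. Each gene was represented by its brightest probe set, and genes below the 25th percentile of mean log2 signal (5.64) were left out. Genotypes were compared with limma 3.58.1 (R 4.3.3), lmFit and eBayes, two-sided, with Benjamini-Hochberg adjustment over 13645 genes and a threshold of 0.05. The limma call was also run on simulated arrays with known changes. Their noise was independent and equal in both genotypes, whereas here replicates differed more in Smad4-KO than in WT. That run gives no error rate for these arrays. Folds given as "at least" come from signals raised to a minimum of 64 and carry no error of their own. The 10 genes, the gene lists, the markers and the tests were chosen with earlier results of these data known. All 10 genes are named. Of each related list, up to 4 genes past the threshold with the largest differences are named, or the 2 of lowest p where none passed. For Fos and Egr1 the 5 genes most like them are named. Older symbols (Cyr61, Mkl1, Mkl2) were matched through RefSeq (GRCm38.p6). Lists were matched by symbol, and members not matched or too dim are not analysed here. Fibroblast, endothelial and T cell markers had 0, 0 and 1 genes past the threshold and red blood cell markers 0. Alternatives were a replicate block, a block for labelling pairs, 3 other scalings, 2 other filters, 2 other uses of probe sets, trend and robust eBayes, the floor of 64, and leaving out each array.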

Additional observations from a re-analysis of the deposited data

How the results depend on the processing

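Fosb kept its direction in all 14 alternatives that tested it and passed in 7. Over all genes, 861 passed; the replicate block gave 1321, the labelling pairs 0 (2658 at an unadjusted p under 0.05 in limma), no filter 0 (2788 at an unadjusted p under 0.05), the mean of probe sets 518 and every probe set by itself 181 genes. Leaving out an array gave 0 to 808 (0 without WT replicate 2, with 1791 at an unadjusted p under 0.05). Among the 10 genes, where 1 passed, 0 passed in limma with the labelling pairs, no filter, the mean of probe sets (9 genes tested, without Fosl1) or every probe set (12 probe sets of the 10 genes), with 3 at an unadjusted p under 0.05 in each, and 0 with the filter at the 50th percentile, which left 7 genes without Fosb, Fosl1 and Junb (1 at an unadjusted p under 0.05). Leaving out an array gave 0 to 1. With an array left out, its genotype has 1 array, which limma assumes to vary like the other genotype. No filter and every probe set adjust over more tests, and the fit itself changed too. The unadjusted p of Fosb in limma was 0.00215 in the main fit, 0.00638 with no filter and 0.00439 with every probe set. The part of each, and any other cause, was not tested.

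Signs turned for Fos without WT replicate 1 (0.019, in a range of -0.22 to 0.019 with an array left out), for Fosl2 without WT replicate 2 (0.10) and without Smad4-KO replicate 1 (0.18, in a range of -0.77 to 0.18), and for Jund with the mean of its probe sets (0.29). No sign of the 10 turned with quantile normalization, cyclic loess or median centring, which moved the median of all genes to -0.16. The main comparison treats the arrays as unpaired, as the labels give biological replicates and no pairs. The deviations of same-numbered arrays correlated at -0.01 across genes, which cannot show for a single gene that the number plays no part. Xist and fat cell markers went with the number in both genotypes. The replicate block kept 1 call among the 10, Fosb. With that block in limma, 4 of the 10 had an unadjusted p under 0.05, beside 2582 of all 13645 genes tested. Atf3 was among them (unadjusted p = 0.0247, against 0.0888 in the main fit).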

Other observations

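Relatives of Egr1 and Nr4a1, chosen after their values were seen, did not share one direction. Egr2, a factor of myelinating and myeloid cells, read 101 and 140 in the WT pools and 228 and 529 in the Smad4-KO pools (log2 difference 1.55, adjusted p = 0.159), against -0.82 for Egr1. Egr3 read 279 and 346 in the WT pools and 334 and 197 in the Smad4-KO pools, and overlapped. Nr4a3 read 479 and 969 in the WT pools and 321 and 542 in the Smad4-KO pools (-0.71, adjusted p = 0.546), and Nr4a2 777 and 454 against 414 and 636; both overlapped.

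Srf, the factor that binds CArG boxes of both early response and contractile genes, read 1816 and 1500 in the WT pools and 690 and 794 in the Smad4-KO pools (-1.16, adjusted p = 0.103). Socs3, a cytokine feedback inhibitor, read 346 and 143 in the WT pools and 1141 and 2723 in the Smad4-KO pools (2.99, adjusted p = 0.0540). Maf, a zipper factor of macrophages, read 1561 and 1623 in the WT pools and 3316 and 4395 in the Smad4-KO pools (1.26, adjusted p = 0.0885). These 3 genes were also chosen after their values were seen, and none passed the test in limma. In each the genotypes did not overlap, with Srf lower and Socs3 and Maf higher in Smad4-KO. Over all genes tested, 21.4% were lower and 25.9% higher in that way.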
